A study of Zea mays with 12 samples.

Results

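Starchy endosperm cells of naked endosperm (nkd) maize kernels were compared with those of the inbred line B73, 15 days after pollination. The comparison was chosen by sample label alone and takes 6 of the 12 libraries of the series, 3 from nkd and 3 from B73 starchy endosperm. The mutant plants were nkd, backcrossed to B73 to the fourth generation, and the wild type was B73 itself; both were grown in the field at Iowa State University in summer 2012. The labels name no transgene and no treatment, and no source used here gives the number of kernels, ears or captured cells per library. The titles number the libraries of each group as biological replicates. Since the make-up of a library is not given, the p-values measure only the spread between libraries, which may be partly technical. Starchy endosperm was cut from paraffin sections of fixed kernels by laser capture, and its polyadenylated RNA was amplified in rounds of linear T7 transcription before sequencing. Each of 3 flow cells carried 1 replicate of each group, so that a replicate number also names a flow cell. Values are normalised reads, that is read counts divided by 1 factor per library, for 1 transcript per gene. A single read equals from 0.449 normalised reads in B73 replicate 2 to 4.48 in B73 replicate 3.

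Starchy endosperm is the inner tissue of the cereal endosperm, where cells import sucrose, turn it into ADP-glucose and starch, and pack zein storage proteins into protein bodies inside the endoplasmic reticulum. It is covered by the aleurone, an epidermis-like layer that holds oil bodies, and meets the maternal plant at the basal transfer layer. The nkd loci, Nkd1 and Nkd2, are duplicate genes for transcription factors with an INDETERMINATE zinc finger domain, known for their part in aleurone identity and in the control of grain filling.

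The libraries held 25767108, 35475864 and 30553144 gene reads in nkd replicates 1, 2 and 3, against 17545719, 57706580 and 9571232 in B73. Markers of starchy endosperm were detected in full in all 6 libraries, with 21 of 21 alpha zein genes and 6 of 6 genes of ADP-glucose supply above 0 in each. Detection alone does not check the label, since the aleurone genes of the list were also detected in every library. B73 replicate 2 stood near aleurone. Across the tested genes its log2 CPM values (reads scaled to library size) had correlations of 0.925 to 0.954 to B73 aleurone and of 0.858 to 0.929 to the other starchy endosperm libraries of B73. For B73 replicate 1 these ranges were 0.856 to 0.897 and 0.867 to 0.929. For nkd replicate 3, against nkd libraries, they were 0.857 to 0.892 and 0.884 to 0.914. In nkd replicates 1 and 2 and in B73 replicate 3 the range to aleurone of the same genotype lay wholly below the other. All 5 aleurone genes of the list were detected in every library, and their summed level was 4549, 5974 and 13743 normalised reads in nkd, against 5599, 24956 and 11309 in B73. In every library most of that sum came from a single gene, the vacuolar proton pump gene vpp1, whose values are given below. The sum therefore mainly follows vpp1 and not the list as a whole. In nkd replicate 3 the 12 genes of the basal transfer layer summed to 9594 normalised reads, against 574 and 945 in the other nkd libraries and 435 to 716 in B73; all 12 were detected there, and betl4 and bap-1a were at 0 in B73 replicates 1 and 3. Embryo and meristem genes summed to 646 to 1102 normalised reads in nkd and 843 to 1372 in B73, maternal pericarp and nucellus genes to 732 to 2869 in nkd and 1076 to 2627 in B73, and embryo-surrounding region genes to 139 at most in nkd and 9 at most in B73. Calls in the results are therefore mostly given with and without B73 replicate 2, and the part of these markers in the results was not tested.

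**Figure D1:**
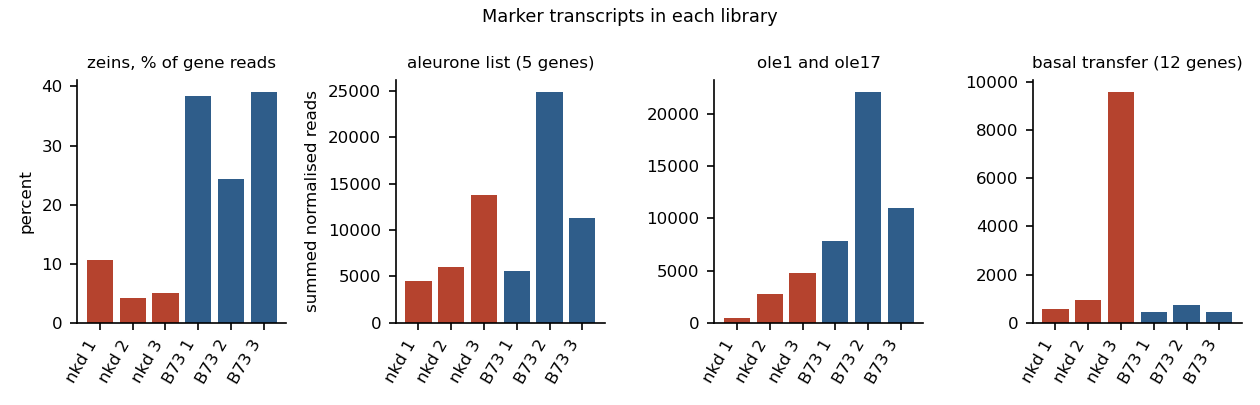
Share of gene reads taken by zeins (percent) and summed normalised reads of the aleurone list, of the oleosin genes ole1 and ole17, and of the basal transfer layer list, 1 bar per library, with nkd in red and B73 in blue. Zeins took 4.18% to 10.7% of gene reads in nkd and 24.3% to 39.1% in B73, the aleurone sum was highest in B73 replicate 2, and the basal transfer layer sum was highest in nkd replicate 3. Most of the aleurone sum was vpp1 in every library.

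Transcripts of both mutated loci were found in every nkd library. Nkd1 (GRMZM2G129261) had 2689, 2276 and 2497 normalised reads in nkd replicates 1, 2 and 3, against 7168, 2880 and 13456 in B73. Nkd2 (GRMZM5G884137) had 896, 1053 and 1017 in nkd, against 2345, 1537 and 1869 in B73. For both genes the highest nkd library was lower than the lowest B73 library, a pattern shown by 10.0% of all genes tested. The log2 differences were -1.39 ± 0.50 for Nkd1 and -0.94 ± 0.34 for Nkd2 (SE, n = 3 each; limma with Benjamini-Hochberg adjustment, adjusted p = 0.22 for both). Without B73 replicate 2, which for Nkd1 lay close to the nkd libraries, they were -1.98 (limma, adjusted p = 0.0657) and -1.09 (limma, adjusted p = 0.21). No source used here says which alleles the plants carry or whether they change transcript level, so these levels do not check the labels.

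Of 24583 genes with a mean of at least 5 normalised reads, limma called 437, or 1.78%, at an adjusted p under 0.05. Of these, 114 genes (0.464%) were higher and 323 genes (1.31%) lower in nkd. The groups did not overlap for any of the 437. Over all tested genes, every nkd library lay above every B73 library for 11.3% and below for 10.0%. The median log2 difference was 3.14 for the genes called higher, -3.62 for those called lower and 0.12 over all genes tested. The genes called lower held 8.27%, 3.69% and 3.63% of gene reads in nkd replicates 1, 2 and 3, against 40.1%, 29.7% and 39.9% in B73. Those called higher held 0.963%, 1.15% and 1.22% in nkd and 0.0988%, 0.201% and 0.0887% in B73. The genes called lower thus include some with very many reads, the zeins above all, and those called higher do not. In bulk tissue, fewer cells of a type and less RNA per cell cannot be told apart.

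Leaving out B73 replicate 2 took the number of calls to 134 of 24481 genes (0.547%), 55 higher (0.225%) and 79 lower (0.323%). Of the 437 genes 116 passed there, 40 higher and 76 lower. The direction of the 437 could not turn, since their groups did not overlap with all libraries in. Over all 437, passed there or not, the median log2 difference was 3.48 for the genes called higher and -3.77 for the genes called lower. Each was further from 0 than with the library in. The count was 25 without B73 replicate 1 and 211 without B73 replicate 3, and 164, 152 and 202 without nkd replicates 1, 2 and 3. In all, 21 genes passed whichever library was left out, 5 of them with a name: z1B_8, crr2, cc6 and a pair of identifiers named NAC1. The other calls of genes with a name were lost without at least 1 of the 6 libraries, and the highest adjusted p over those 6 fits is given below for the genes that lead each group. When libraries were instead scaled to equal totals outside the zeins, the median of all genes shifted up by 0.43 on the log2 scale and the split became 198 higher and 176 lower. The smallest called differences, 1.54 and -1.54, were larger in size than that shift, so no sign among the 437 could turn. Of the 74 called genes with a name, 69 passed with the replicate number as a block, 45 with equal totals outside the zeins and 19 without B73 replicate 2. Those that did not pass with equal totals outside the zeins include FL1, der2, AAE, sugary2, sus2, Cat0, ARF30, glb3 and the WRKY gene described below. With the block 626 genes were called, more than the 437 of the main test. The adjusted p of the block fit is given below mostly for genes that missed the main test. A pass with the block alone is not counted as a call.

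**Figure D2:**
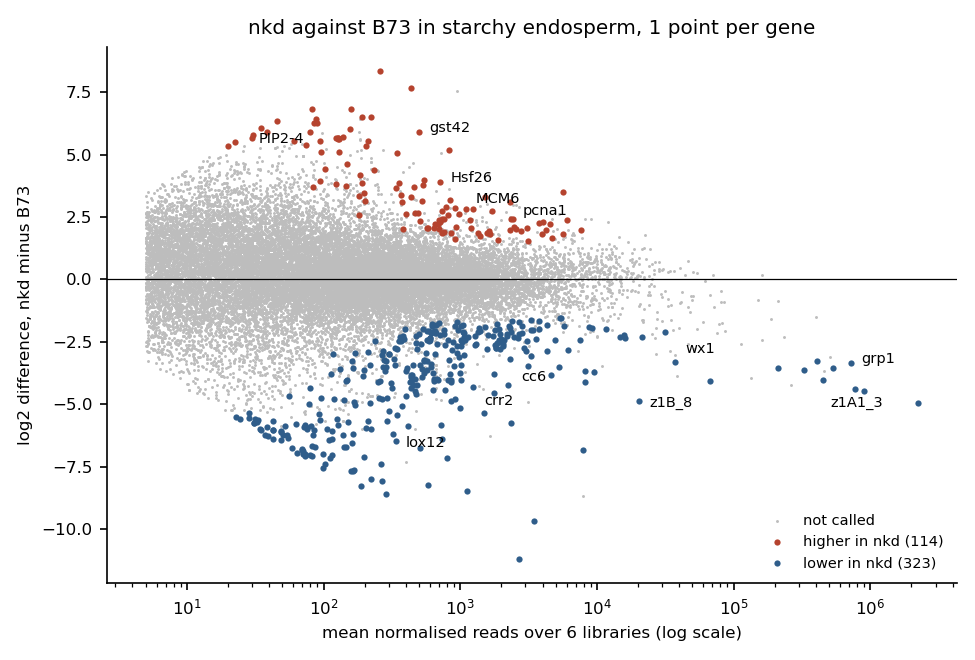
Log2 difference of nkd minus B73 against the mean normalised reads over the 6 libraries (log scale), 1 point per tested gene, with genes called by limma in red (114 higher in nkd) and blue (323 lower). The genes called lower reach to means above those of every gene called higher, and z1A1_3 lies farthest to the right.

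Among zein transcripts, falls in nkd were called in the z1A and z1B groups of the alpha zeins. Alpha zeins are the bulk storage proteins of the protein body core. Of 21 tested alpha zein genes 8 fell, none rose and 13 were not called, where 1.31% of all genes were called lower, and their median log2 difference was -2.59. The count of 8 was 4 without B73 replicate 2, and it was 1, z1B_8, without nkd replicate 3 and with edgeR on recovered reads. Summed over the 21 genes the level was 1594183, 290499 and 390570 normalised reads in nkd replicates 1, 2 and 3, against 12458758, 5212509 and 15074590 in B73. The nkd libraries lay below all B73 libraries, with nkd replicate 1 the highest of its group and B73 replicate 2 the lowest of its own.

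Among the z1A and z1B genes, z1A1_3 (GRMZM2G059620) had 421169, 65936 and 81259 normalised reads in nkd, against 5100917, 2442668 and 5372299 in B73. Its log2 difference was -4.95 ± 0.93 (SE; limma, adjusted p = 0.0295), and -5.32 without B73 replicate 2 (limma, adjusted p = 0.0567). The z1B_8 gene (GRMZM2G025763) had 956, 714 and 2010 normalised reads in nkd, against 24071, 18353 and 74832 in B73. It fell by 4.85 on the log2 scale (SE 0.56; limma, adjusted p = 0.00479) and passed without B73 replicate 2 (log2 difference -5.25, limma adjusted p = 0.0206) and in all 6 fits that left out 1 library. Of 9 z1A genes 7 fell (median log2 difference -4.02), and z1A1_2 and z1A2_3 of these passed without B73 replicate 2. The other falls were those of z1A1_5, z1A2_1, z1A1_6, which is the floury4 locus, and z1A1_7, with log2 differences of -4.48, -4.39, -4.02 and -3.63 (limma, adjusted p = 0.0284 to 0.0357). Without nkd replicate 2 the adjusted p reached 0.168 for z1A1_3 and 0.143 for z1A1_5 (limma). The z1A2_2 gene, with 150618, 26500 and 39451 normalised reads in nkd and 873663, 262199 and 1405987 in B73, missed the threshold (log2 difference -3.67, limma adjusted p = 0.0578) and passed with the replicate number as a block (limma, adjusted p = 0.0133).

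None of the 11 genes of the z1C group was called, and their median log2 difference was -1.90. For 9 of the 11, B73 replicate 2 lay within the range of the nkd libraries. The z1C2 gene (GRMZM2G397687) had 38994, 7675 and 14476 normalised reads in nkd, against 136170, 17625 and 111027 in B73 (log2 difference -1.98, limma adjusted p = 0.278). Without that library the median of the group was -2.55 and z1C1_1 passed (log2 difference -3.06, limma adjusted p = 0.0366). Whether the z1A and z1C groups differ in their response was not tested, and reads of these near-identical genes may be split between members, so that single members are uncertain. With the replicate block 12 alpha zeins fell, z1A2_2, z1A1_8, z1C1_1 and z1C1_2 in addition, where 1.77% of all genes were called lower and 0.777% higher.

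Zeins of the other classes did not pass the test. Beta, gamma and delta zeins are rich in sulphur, and gamma zeins form the outer shell of the protein body. None of the 5 tested was called (median log2 difference -2.31). The gamma zein zp27 had 240513, 245242 and 139319 normalised reads in nkd, against 836901, 465074 and 489557 in B73 (log2 difference -1.51, limma adjusted p = 0.313). The delta zein dzs18 had 73859, 38239 and 37295 in nkd, against 168349, 214998 and 437146 in B73 (log2 difference -2.41, limma adjusted p = 0.067). Values of nkd lay below those of B73 in every library for zp27, dzs18 and zp16, as for 10.0% of all genes, but not for zp15 and gz50. Of gz50, nkd replicate 2 held 25284 normalised reads and B73 replicate 2 held 11454.

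Transcripts for proteins that build the protein body fell for 3 genes. Of 11 genes of endoplasmic reticulum folding and the protein body, 3 fell and 8 were not called (median log2 difference -0.53), where 1.31% of all genes were called lower. With equal totals outside the zeins 2 fell and the median was -0.09, and 1 fell without B73 replicate 2 or without nkd replicate 3. FL1 (floury1, GRMZM2G094532), a membrane protein of the protein body that places alpha zeins, had 875, 607 and 169 normalised reads in nkd, against 2993, 2062 and 4998 in B73. It fell by 2.80 on the log2 scale (limma, adjusted p = 0.0418, or 0.0699 without B73 replicate 2). Opaque10 (GRMZM2G346263), which arranges zeins within the protein body, had 959, 453 and 442 in nkd, against 4083, 2502 and 3922 in B73, and fell by 2.57 (limma, adjusted p = 0.0176, or 0.0399 without B73 replicate 2). This held for its transcript with the highest mean; its first annotated transcript did not pass and had the opposite sign (log2 difference 0.74). PDIL5-1, a protein disulphide isomerase, had 6318, 3990 and 4866 normalised reads in nkd, against 19077, 20292 and 42425 in B73 (log2 difference -2.35, limma adjusted p = 0.0232, or 0.0543 without B73 replicate 2). Without B73 replicate 1 the adjusted p was 0.148 for FL1 and 0.0949 for Opaque10, and without nkd replicate 2 it was 0.0879 for PDIL5-1 (limma). The general chaperone bip1 had 12409, 6547 and 6645 in nkd and 18020, 14778 and 6074 in B73, with overlapping groups (log2 difference -0.53, limma adjusted p = 0.641). Beyond the list, der2, a derlin of protein export from the endoplasmic reticulum, fell by 1.86 on the log2 scale, and AAE, the opaque7 locus for an acyl-activating enzyme, by 1.65 (limma, adjusted p = 0.0375 and 0.0319); neither passed without B73 replicate 2.

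Starch synthase transcripts fell for the enzyme that makes amylose and for 1 enzyme of amylopectin. Of 5 starch synthase genes 2 fell and 3 were not called (median log2 difference -1.55), where 1.31% of all genes were called lower. The count was 1 with equal totals outside the zeins, without B73 replicate 2 and without nkd replicate 3, and 0 with edgeR. The granule-bound starch synthase wx1 (GRMZM2G024993) had 8503, 9118 and 3050 normalised reads in nkd, against 115176, 39805 and 48875 in B73. It fell by 3.30 on the log2 scale (SE 0.55; limma, adjusted p = 0.0203) and by 3.60 without B73 replicate 2 (limma, adjusted p = 0.0433), and it passed in 4 of the 6 fits that left out 1 library. The starch synthase gene sugary2 had 2815, 2529 and 1874 in nkd, against 9067, 5676 and 12483 in B73 (log2 difference -1.86, limma adjusted p = 0.0387, or 0.0524 without B73 replicate 2). Without B73 replicate 1 the adjusted p was 0.0949 for wx1 and 0.158 for sugary2 (limma). For ss1 and du1, soluble starch synthases of amylopectin, every nkd library lay below every B73 library, as for 10.0% of all genes. Neither passed the test (log2 differences -1.55 and -1.48; limma, adjusted p = 0.103 and 0.0797).

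The supply of sugar nucleotides showed 1 call. All 6 genes of ADP-glucose supply had every nkd library below every B73 library, against 10.0% of all genes, and none was called; their median log2 difference was -1.59, and -1.92 without B73 replicate 2. The small subunit gene of ADP-glucose pyrophosphorylase, bt2, had 18029, 23049 and 4477 normalised reads in nkd, against 117715, 54612 and 91076 in B73 (log2 difference -2.77, limma adjusted p = 0.0546, or 0.0177 with the block). The large subunit gene sh2 had 54028, 42337 and 19543 in nkd, against 108219, 89149 and 178786 in B73 (log2 difference -1.76, limma adjusted p = 0.15). Among 7 genes that cleave sucrose, sus2 fell and 6 were not called, where 1.31% of all genes were called lower. This sucrose synthase gene had 7.38, 130 and 78.1 normalised reads in nkd, against 610, 3166 and 1134 in B73, where B73 replicate 2 was the highest library (log2 difference -4.88, limma adjusted p = 0.0334, or 0.106 without B73 replicate 2). The sucrose synthase gene sh1 had 190179, 90416 and 54228 in nkd, against 941363, 521629 and 1258483 in B73. Its log2 difference of -3.12 missed the threshold (limma, adjusted p = 0.0573, or 0.0446 with the block). No branching, debranching or phosphorylase gene was called among 5; ae1, the starch branching enzyme gene of amylose-extender, had 50103, 56860 and 17361 in nkd and 54136, 70157 and 53111 in B73 (log2 difference -0.68, limma adjusted p = 0.583). The pullulanase gene zpu1, a debranching enzyme, was the 1 gene of that list with nkd above B73 in every library, at 5516, 615 and 1518 in nkd and 358, 149 and 538 in B73 (log2 difference 2.49, limma adjusted p = 0.135, or 0.0165 with the block).

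**Figure D3:**
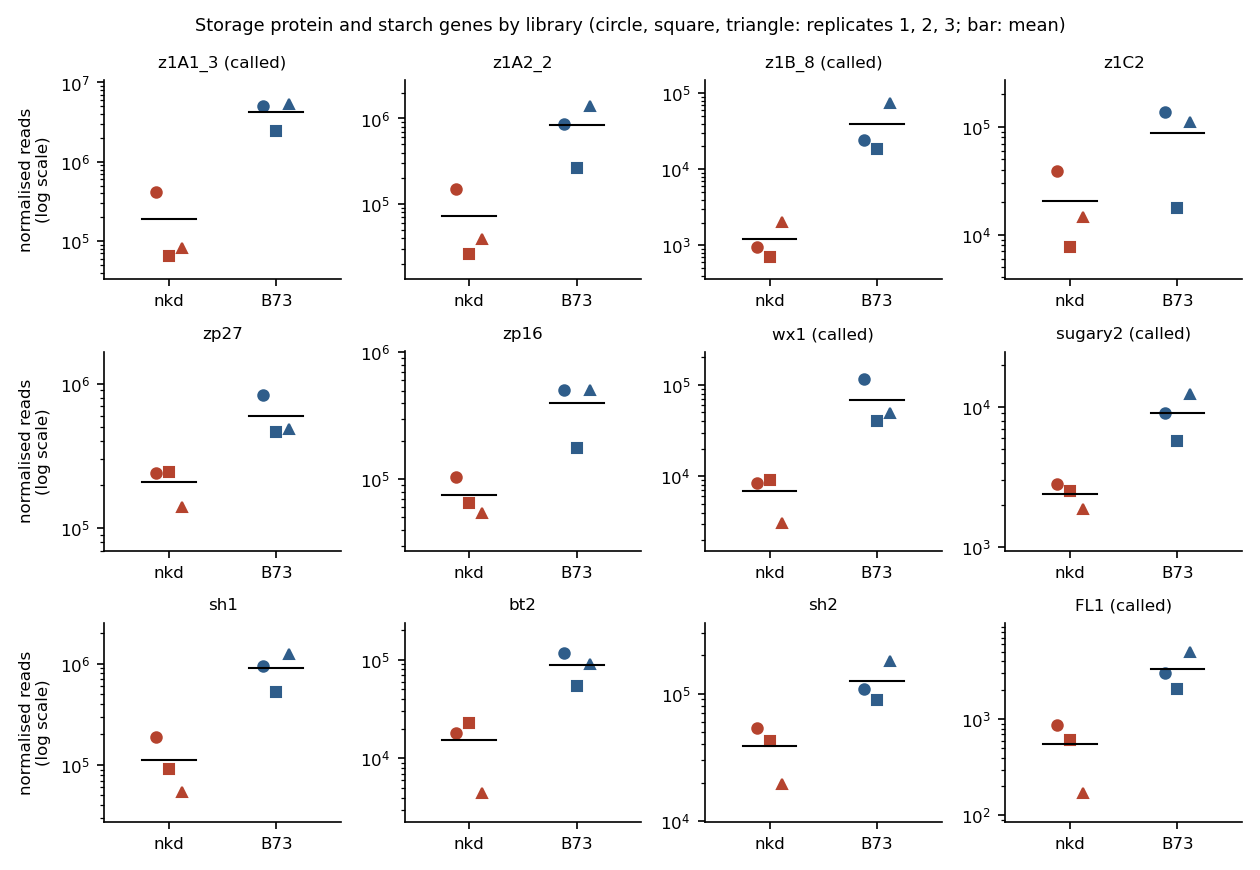
Normalised reads (log scale) of 12 storage protein and starch genes in each library, nkd in red at the left and B73 in blue at the right of each panel, with circles, squares and triangles for replicates 1, 2 and 3 and a bar at the mean. The nkd libraries lie below the B73 libraries in every panel except that of z1C2, where B73 replicate 2, at 17625, lies below nkd replicate 1, at 38994.

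Of 13 regulators of storage product genes, both nkd loci among them, none passed (median log2 difference -0.50, and -0.06 with equal totals outside the zeins). The bZIP factor o2, which activates alpha zein genes, had 12968, 8023 and 7200 normalised reads in nkd, against 19542, 14750 and 18153 in B73 (log2 difference -0.93, limma adjusted p = 0.273). The prolamin-box factor pbf1 had 598, 403 and 436 in nkd, against 2177, 694 and 1470 in B73 (log2 difference -1.47, limma adjusted p = 0.158). In 5 of the 13 every nkd library lay below every B73 library, against 10.0% of all genes. These were both nkd loci, o2, pbf1 and vp1. The gene vp1, a regulator of seed maturation, had 0.820, 13.2 and 36.5 normalised reads in nkd and 198, 237 and 193 in B73 (log2 difference -4.41, limma adjusted p = 0.0757, or 0.0392 with the block). The factor Opaque11 had 3720, 3802 and 2574 in nkd and 2377, 3369 and 2595 in B73, and its groups overlapped. Outside this list, 1 NAC gene of 18, 1 WRKY gene of 16 and 1 bZIP gene of 31 fell, where 1.31% of all genes were called lower. The NAC pair described next was counted once. A pair of identifiers named NAC1 (GRMZM2G018553 and GRMZM2G336533) had nearly equal values and may share reads; the first had 368, 485 and 575 normalised reads in nkd, against 2642, 3234 and 3689 in B73. It fell by 2.75 on the log2 scale (SE 0.35; limma, adjusted p = 0.00694) and passed without B73 replicate 2 (limma, adjusted p = 0.0332). LOB15, of the LATERAL ORGAN BOUNDARIES family, had 110, 31.9 and 78.6 in nkd, against 1608, 1059 and 1730 in B73 (log2 difference -4.44, limma adjusted p = 0.00594, or 0.0294 without B73 replicate 2).

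Among the 15 largest falls with a name were genes of cytokinin signalling and protease inhibition. The cytokinin response regulator crr2 (GRMZM2G392101), of the type induced by cytokinin, had 131, 112 and 113 normalised reads in nkd, against 2880, 1886 and 2358 in B73. It fell by 4.29 on the log2 scale (SE 0.38; limma, adjusted p = 0.00113), by 4.45 without B73 replicate 2 (limma, adjusted p = 0.0127), and passed whichever library was left out. It was the 1 gene called among 20 of the cytokinin list, where 1.31% of all genes were called lower. The receptor gene HK1 had 197, 69.3 and 168 in nkd and 207, 198 and 977 in B73 (log2 difference -1.37, limma adjusted p = 0.398). The cystatin gene cc6 (GRMZM2G401328), an inhibitor of cysteine proteases, had 235, 190 and 226 in nkd, against 5526, 4696 and 2618 in B73, and fell by 4.23 (SE 0.39; limma, adjusted p = 0.00144, or 0.0206 without B73 replicate 2). FIP1 (GRMZM2G046782) had 60.7, 18.7 and 97.8 in nkd, against 2433, 953 and 2371 in B73 (log2 difference -5.16, limma adjusted p = 0.00694, or 0.0289 without B73 replicate 2). For crr2, cc6 and FIP1 the lowest B73 library stood far above the highest nkd library. Without B73 replicate 1, FIP1 and LOB15 missed the threshold (limma, adjusted p = 0.0652 and 0.0576).

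Among defence genes falls were called for Zlp, with few reads left in nkd, and for chiB. Zlp (GRMZM2G374971), a zeamatin-like protein of the thaumatin family, had 0, 0 and 3 reads in nkd against 1333 in B73. Scaled for depth, its nkd level was 0.127% of that in B73, with a 95% interval of 0.0262% to 0.372% that covers counting error only. It passed the test (limma, adjusted p = 0.0114) and missed the threshold without B73 replicate 2 (limma, adjusted p = 0.0543). The chitinase gene chiB had 1614, 1199 and 524 normalised reads in nkd, against 5537, 9787 and 7109 in B73 (log2 difference -2.86, limma adjusted p = 0.0165, or 0.0581 without B73 replicate 2). Zlp and chiB were the 2 calls among the 16 tested members of a list of chitinases, pathogenesis-related proteins and protease inhibitors, and 14 were not called (median log2 difference -1.11). The list does not hold the cystatin gene cc6, whose call is given above. Both calls were lower in nkd, where 1.31% of all genes were called lower. The defensin gene DEF1 had 2.46, 15.7 and 107 in nkd and 397, 444 and 511 in B73 (log2 difference -4.61, limma adjusted p = 0.0597, or 0.0128 with the block). Without B73 replicate 1, Zlp and chiB missed the threshold (limma, adjusted p = 0.0576 and 0.0705). In the same list the cystatin gene cc8 lay the other way, with 18, 99.7 and 1501 in nkd and 2.13, 17.5 and 0 in B73 (log2 difference 5.20, limma adjusted p = 0.156); nkd replicate 3, the library with most basal transfer layer transcripts, was the highest.

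Of 11 antioxidant genes 2 fell and 9 were not called (median log2 difference -1.18), and 7 had nkd below B73 in every library, where 1.31% of all genes were called lower and 10.0% lay below. With equal totals outside the zeins 1 fell and the median was -0.75, and none fell without B73 replicate 2. The catalase gene Cat0, also named cat2, had 1.64, 0 and 16.2 normalised reads in nkd, against 145, 266 and 139 in B73 (log2 difference -5.62, limma adjusted p = 0.0398, or 0.121 without B73 replicate 2). The peroxidase gene PRX1 (GRMZM2G104394), also on the pericarp list, had 42.7, 4.55 and 13.7 in nkd, against 382, 200 and 964 in B73 (log2 difference -4.78, limma adjusted p = 0.0297, or 0.0571 without B73 replicate 2). The lipoxygenase gene lox12 had 36.1, 2.02 and 1.01 in nkd, against 989, 195 and 793 in B73, and fell by 6.46 on the log2 scale (limma, adjusted p = 0.0238, or 0.0511 without B73 replicate 2); it was the 1 call among 26 lipoxygenase and jasmonate genes. AGA3b and the WRKY gene GRMZM2G125653, also named WRKY53, fell by 5.87 and 5.38 (limma, adjusted p = 0.0302 and 0.0491) and did not pass without B73 replicate 2 (limma, adjusted p = 0.0621 and 0.119). Without B73 replicate 1 the adjusted p was 0.155 for Cat0, 0.131 for PRX1 and 0.137 for lox12 (limma). The nkd libraries of these genes held at most 36.1 normalised reads, other than PRX1 at 42.7.

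**Figure D4:**
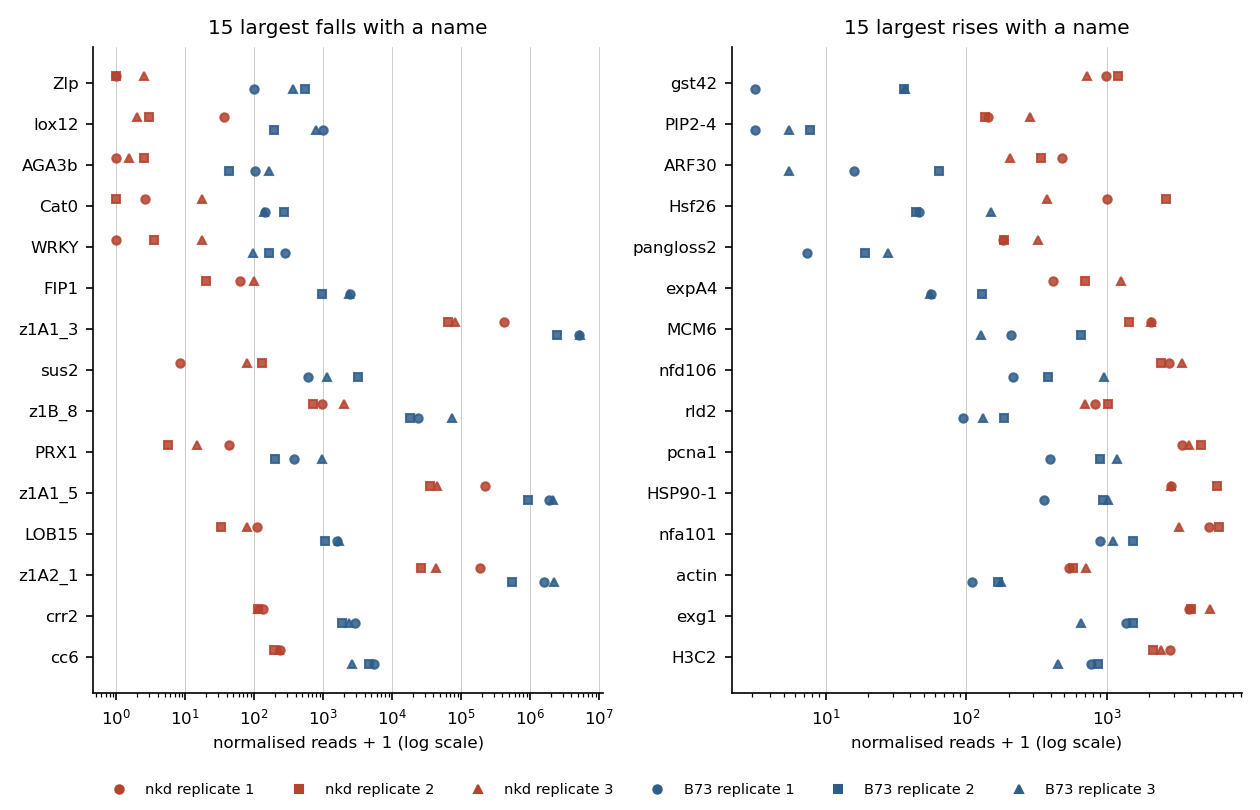
Normalised reads plus 1 (log scale) of the 15 largest falls (left) and the 15 largest rises (right) among genes with a name, with nkd in red above B73 in blue in each row and circles, squares and triangles for replicates 1, 2 and 3. The groups are apart in every row, the nkd libraries of crr2 lie between 112 and 131, and Hsf26 spreads between 372 and 2636 in nkd.

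Genes of DNA replication were among the rises. Of 22 genes of the cell cycle and DNA replication 2 rose, none fell and 20 were not called, where 0.464% of all genes were called higher. The count was 4 with the block, 5 with equal totals outside the zeins, 1 without B73 replicate 2, and 0 without nkd replicate 3 and with edgeR. The median log2 difference was 1.28, against 0.12 over all genes tested, and 10 of the 22 had every nkd library above every B73 library, against 11.3% of all genes. MCM6 (GRMZM2G021069), a subunit of the replicative helicase, had 2064, 1447 and 2060 normalised reads in nkd, against 207, 659 and 126 in B73. It rose by 2.82 on the log2 scale (SE 0.56; limma, adjusted p = 0.0343) and by 3.50 without B73 replicate 2 (limma, adjusted p = 0.0289). The replication clamp gene pcna1 (GRMZM2G030523) had 3429, 4719 and 3864 in nkd, against 394, 896 and 1183 in B73 (log2 difference 2.41, limma adjusted p = 0.0256, or 0.0621 without B73 replicate 2). Without B73 replicate 1 the adjusted p was 0.145 for MCM6 and 0.097 for pcna1 (limma). A related clamp gene, pcna2, had 1891, 4737 and 2000 in nkd and 411, 1218 and 551 in B73 (log2 difference 2.00, limma adjusted p = 0.0803, or 0.015 with the block). The same order of groups was seen for MCM7, for orc2 of the origin recognition complex, for the kinase gene wee1, which restrains entry into mitosis, for the retinoblastoma-related gene rbr3 and for the kinase gene cdc2, none of them called. The cyclin genes cyc1 and cyc3 overlapped between the groups, at 2.46, 44.0 and 101 normalised reads in nkd and 8.53, 33.3 and 4.48 in B73 for cyc1.

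Rises were also called for chromatin genes. Of 7 histone genes H3C2 rose and 6 were not called (median log2 difference 0.74), where 0.464% of all genes were called higher. H3C2 had 2833, 2134 and 2432 normalised reads in nkd, against 772, 860 and 453 in B73 (log2 difference 1.87, limma adjusted p = 0.034, or 0.0621 without B73 replicate 2). The linker histone gene his1a had 15300, 10490 and 10970 in nkd and 6307, 11107 and 5410 in B73, with overlapping groups (log2 difference 0.74, limma adjusted p = 0.411). The nucleosome factor genes nfd106, of the high mobility group, and nfa101, of nucleosome assembly, rose by 2.73 and 2.06 (limma, adjusted p = 0.0291 and 0.0284; 0.0813 and 0.0541 without B73 replicate 2). Histone genes have near-identical copies, so single members are uncertain. Among 11 Polycomb and DNA methylation genes none was called; fie1, an endosperm Polycomb gene, had 2413, 2629 and 2029 in nkd and 1072, 877 and 843 in B73 (log2 difference 1.34, limma adjusted p = 0.0739, or 0.148 without B73 replicate 2).

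Of 13 heat shock protein genes 1 rose and 12 were not called (median log2 difference 1.27), where 0.464% of all genes were called higher. In 8 of the 13 every nkd library lay above every B73 library, against the same 11.3%. The count of 1 was 4 with the block, 2 with equal totals outside the zeins, and 0 without B73 replicate 2 and with edgeR. HSP90-1 (GRMZM2G024668), a chaperone, had 2888, 6092 and 2891 normalised reads in nkd, against 356, 936 and 1022 in B73 (log2 difference 2.41, limma adjusted p = 0.036, or 0.068 without B73 replicate 2). The heat shock factor gene Hsf26, the 1 call among 8 of its kind, had 1006, 2636 and 372 in nkd, against 44.8, 42.7 and 148 in B73, and rose by 3.90 (SE 0.74; limma, adjusted p = 0.0302, or 0.0842 without B73 replicate 2). In both genes nkd replicate 2 was the highest library, and without B73 replicate 1 the adjusted p was 0.136 for HSP90-1 and 0.128 for Hsf26 (limma). The same nkd library was the highest for hsp18f, at 13840, 22008 and 5686 in nkd and 3673, 3206 and 977 in B73 (log2 difference 2.41, limma adjusted p = 0.0777, or 0.00491 with the block), and for hsp82, at 104, 925 and 261 in nkd and 40.5, 10.3 and 4.48 in B73 (log2 difference 4.42, limma adjusted p = 0.0585, or 0.032 with the block).

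The largest rises with a name came from other families. The glutathione S-transferase gene gst42 (GRMZM2G025190) had 989, 1206 and 722 normalised reads in nkd, against 2.13, 35.1 and 35.9 in B73. It rose by 5.89 on the log2 scale (SE 0.91; limma, adjusted p = 0.0154) and passed without B73 replicate 2 (log2 difference 6.47, limma adjusted p = 0.0322). It was the 1 call among 21 genes of that family, whose median log2 difference was -0.69, of opposite sign. Over all genes 0.464% were called higher. The plasma membrane aquaporin gene PIP2-4 had 143, 136 and 285 in nkd, against 2.13, 6.74 and 4.48 in B73 (log2 difference 5.12, limma adjusted p = 0.0227, or 0.0479 without B73 replicate 2). It too was the 1 call among 20 of its family (median log2 difference -0.47, and -0.05 with equal totals outside the zeins); its relative PIP2-1 had 58211, 31137 and 25319 in nkd and 65860, 73182 and 36858 in B73, and in the whole list 6 genes had every nkd library below every B73 library and 2 above, against 10.0% and 11.3% of all genes. Of the 6, none was called, among them the tonoplast gene TIP2-2 (log2 difference -5.38, limma adjusted p = 0.0549, or 0.0484 with the block). ARF30, an auxin response factor gene and the 1 call among 26 auxin genes, had 481, 342 and 205 in nkd, against 14.9, 62.5 and 4.48 in B73 (log2 difference 4.20, limma adjusted p = 0.0483, or 0.0379 without B73 replicate 2). With equal totals outside the zeins its adjusted p was 0.0502 (limma). The highest adjusted p with 1 library left out was 0.0714 for gst42 (nkd replicate 2), 0.103 for PIP2-4 (nkd replicate 3) and 0.216 for ARF30 (nkd replicate 1; limma). A value of 2.13 in B73 replicate 1 or of 4.48 in B73 replicate 3 is a single read. Each of gst42, PIP2-4 and ARF30 had at least 1 such value, so the size of these rises is uncertain.

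The receptor-like kinase gene pangloss2, which in maize leaves directs asymmetric division beside stomata, had 180, 185 and 321 normalised reads in nkd, against 6.4, 18 and 26.9 in B73 (log2 difference 3.81, limma adjusted p = 0.0387, or 0.0724 without B73 replicate 2). The other 8 genes of the epidermal list were not called, and the values of ocl3, an epidermal HD-ZIP gene, overlapped at 36.1, 122 and 385 in nkd and 21.3, 176 and 690 in B73. The expansin gene expA4, of cell wall loosening and also on the pericarp list, had 413, 701 and 1268 in nkd, against 55.4, 128 and 53.8 in B73 (log2 difference 3.29, limma adjusted p = 0.0227, or 0.0379 without B73 replicate 2). The HD-ZIP gene rld2 had 831, 1021 and 705 in nkd, against 93.8, 184 and 130 in B73 (log2 difference 2.68, limma adjusted p = 0.0193, or 0.0379 without B73 replicate 2). With 1 library left out the adjusted p reached 0.155 for pangloss2 (nkd replicate 3), and 0.102 for expA4 and 0.0856 for rld2 (B73 replicate 1; limma). Within the cell wall list of 28 genes expA4 was the 1 rise, and grp1, for a glycine-rich protein, the 1 fall. Over all genes 0.464% were called higher and 1.31% lower. The gene grp1 had 121903, 240462 and 72548 in nkd, against 1488972, 1137524 and 1286892 in B73 (log2 difference -3.33, limma adjusted p = 0.0462, or 0.0884 without B73 replicate 2). The remaining rises of the 15 were actin and exg1, an exoglucanase gene, by 2.03 and 1.96 (limma, adjusted p = 0.0442 and 0.0385); the rise of actin did not hold with the replicate block (limma, adjusted p = 0.0508). Of the 15 largest rises 6 passed without B73 replicate 2, and of the 15 largest falls 5 did.

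Transcripts of neighbouring cell types were read from their lists. Of 11 tested basal transfer layer genes none was called. All 11 had a positive log2 difference, where 13438 of all 24583 genes tested did. Members low in B73 could pass the filter on the mean through nkd alone, so the shared sign is not read as a result. The median of the 11 was 2.53, against 1.25 without nkd replicate 3 and 3.46 without B73 replicate 2. The gene betl2 had 244, 255 and 4125 normalised reads in nkd, against 17.1, 205 and 184 in B73 (log2 difference 2.85, limma adjusted p = 0.28). Of 5 aleurone genes none was called (median log2 difference -0.39, and 0.04 with equal totals outside the zeins); vpp1, a vacuolar proton pump gene used as an aleurone marker, had 3422, 4667 and 12212 in nkd and 4499, 23594 and 9256 in B73. Of 8 oil body and oil synthesis genes none was called either. The oleosin gene ole1 had 354, 2402 and 4109 in nkd, against 6761, 19059 and 10574 in B73 (log2 difference -2.87, limma adjusted p = 0.101, or 0.00631 with the block). It was highest in B73 replicate 2, and without that library its log2 difference was -2.48 (limma, adjusted p = 0.209). The storage globulin gene glb3 was the 1 call among 7 late embryogenesis and seed maturation genes, where 1.31% of all genes were called lower. It had 17064, 10672 and 8596 in nkd and 70417, 37711 and 45549 in B73 (log2 difference -2.09, limma adjusted p = 0.0399, or 0.0705 without B73 replicate 2). How far RNA from other cells enters these values was not tested.

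**Figure D5:**
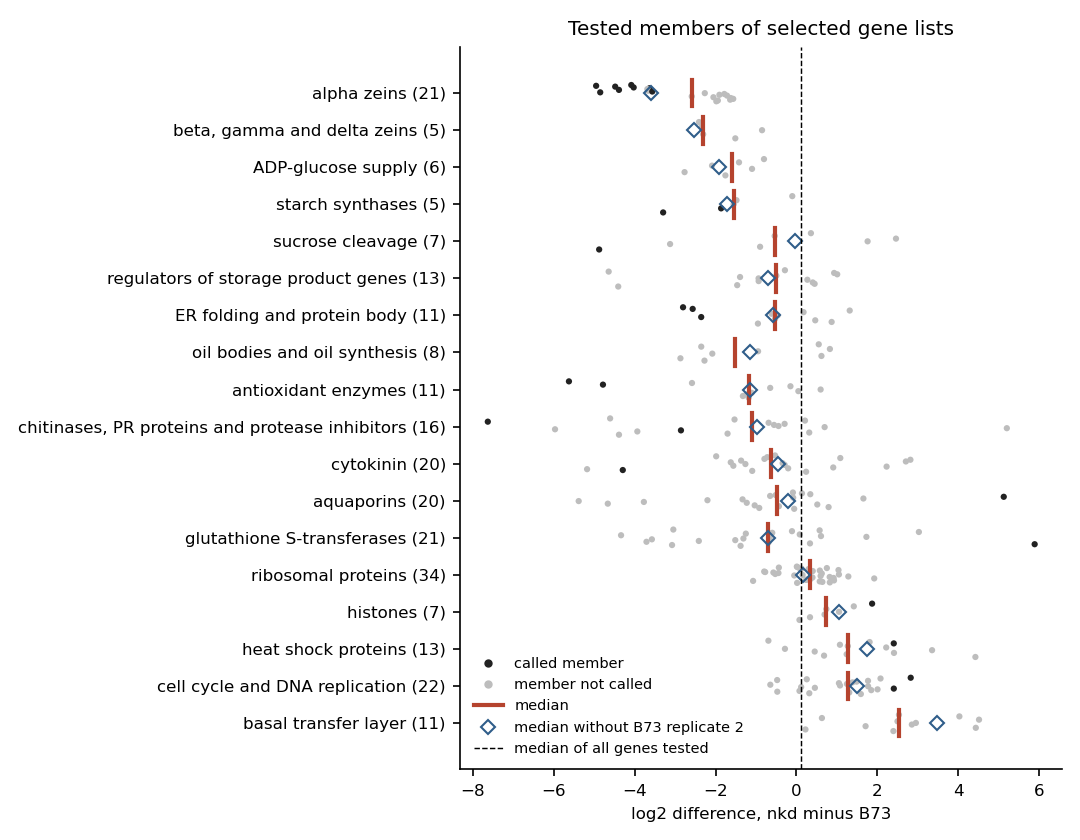
Log2 difference of nkd minus B73 for each tested member of selected gene lists (number tested in parentheses), with called members in black, a red bar at the list's median, an open blue diamond at its median without B73 replicate 2 and a dashed line at the median of all genes tested, 0.12. The zein and starch lists lie left of the dashed line and the cell cycle, heat shock and basal transfer layer lists right of it; the medians without B73 replicate 2 lie on the same side of it in each of these lists.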

How the data were processed

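Per the labels' protocols, polyadenylated RNA of laser-captured starchy endosperm was sequenced as paired-end reads in 3 nkd and 3 B73 libraries, whose depth opens the results. The authors deposited signal values for 63540 transcripts of 39656 genes. FastQC, TopHat and DESeq are named, with no versions, in the submitters' processing notes. Genome build, annotation, strand use and multiple mapping: not given in the sources used here. All deposited signal values (100%) were whole multiples of 1 step per library within 0.01, so they are reads divided by a factor, and reads were recovered.

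For each gene the transcript of highest mean was used. Genes with a mean of at least 5 were tested with limma 3.58.1 (trended empirical Bayes, R 4.3.3) on log2(value + 1), two-sided, with Benjamini-Hochberg adjustment over all genes and a threshold of 0.05. The pseudocount of 1 understates differences of low genes. On recovered reads, edgeR 4.0.16 (quasi-likelihood test) called 199 genes. Other alternatives were DESeq2 1.42.0, the replicate block, other scalings, pseudocounts, filters, transcripts and priors, and leaving out each library. The scripts were tested on simulated data. Tables were made with Python 3.11.15.

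Names came from RefSeq for Zm-B73-REFERENCE-NAM-5.0, with 18775 of 39656 identifiers matched. Where strand use is unknown, a gene and its antisense partner cannot be told apart. The rule for names took, besides the nkd loci, the 15 rises and 15 falls of greatest size with a symbol or synonym, a mean of at least 50, a call and no overlap, and from each list the 6 members of highest mean and all called members. A few further genes were named after their values were seen. The members and lists were chosen with earlier results of these data known. By the labels a replicate number stands for a flow cell, so that same-numbered libraries can be taken as pairs. The main test was unpaired, and only the fits with the replicate block used the pairs. Across genes, the deviations of same-numbered libraries from their group means had correlations of 0.0377, -0.00942 and -0.0450. The block thus had little shared deviation to remove.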

Additional observations from a re-analysis of the deposited data

How the results depend on the processing

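The 437 calls (114 higher, 323 lower) depended most on which libraries and which estimate of spread were used. Leaving out 1 library gave 25 to 211 calls, with 6 to 74 higher and 19 to 176 lower, and the lowest counts came without B73 replicate 1; the cause was not tested. The replicate block gave 191 higher and 435 lower. With B73 replicate 2 also left out it gave 864 calls (452 higher, 412 lower). In that fit nkd replicate 2 has no partner and adds nothing to the difference, which rests on replicates 1 and 3 of each group. Of the 74 called genes with a name, 69 passed with the block, 45 with equal totals outside the zeins and 19 without B73 replicate 2. On recovered reads edgeR gave 199 calls (49 higher, 150 lower), 198 of them shared, and DESeq2 1705 (605 higher, 1100 lower), 435 of them shared. A prior without trend gave 197 (60 higher, 137 lower) and no filter on low values 215 (48 higher, 167 lower). Equal totals outside the zeins gave 198 higher and 176 lower. TMM scaling, a pseudocount of 5, a minimum mean of 50 and the first annotated transcript gave 398 to 477 calls. With the first transcript, Opaque10 changed sign, with a log2 difference of 0.74. Each group had 3 libraries, and the median SD of log2 values was 0.633 in nkd and 0.850 in B73.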

Other observations

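The methyl-binding domain gene mbd123 had 0 reads in nkd and 292 in B73, and its level was at least 172-fold lower in nkd at a floor of 3 reads over the group. It was called (limma, adjusted p = 0.0387) but not without B73 replicate 2 (limma, adjusted p = 0.117), and it was chosen after its values were seen.

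Larger changes were found in genes that RefSeq gives no gene name here, and these too were chosen after their values were seen. GRMZM2G134020 had 0, 4.05 and 1.01 normalised reads in nkd, against 4921, 7885 and 3366 in B73 (log2 difference -11.19, limma adjusted p = 0.000321). GRMZM2G137352 had 387, 710 and 449 in nkd, against 0, 2.7 and 0 in B73 (log2 difference 8.33, limma adjusted p = 0.00479). Both passed whichever library was left out, and their groups stood far apart.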
